A study of Mus musculus with 2 samples.

Results

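The cytosolic ribosomal protein genes encode the proteins that, with the ribosomal RNAs, form the large and the small subunit of the ribosome that translates nuclear mRNAs. They were selected by symbol, with no use of measured values: protein-coding genes whose mouse symbol is Rpl, Rps, Rplp or Rpsa followed by its number, without S6 kinases and without pseudogenes. The selection gave 86 genes of the 69691 features in each gene table, among 21474 protein-coding genes. Of these 86 genes, 46 encode core proteins of the large subunit and 31 core proteins of the small subunit, so that 77 are called core here. The other 9 are 8 paralogs of core genes and Rps19bp1, which encodes a protein that binds a ribosomal protein.

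Small intestine was taken from C57BL/6J mice, adults of 8 weeks, and no genotype beyond the strain and no treatment is named. Tissue of male and female littermates was pooled, and each of the 2 libraries is labelled as its own biological replicate with its own tissue sample. RNA over 200 nt was selected for poly(A) tails and depleted of rRNA, and strand-specific pairs of 76 nt reads were sequenced. The 2 libraries form 1 group, so no groups could be compared, and the values are described with both replicates and no test.

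Ribosomal proteins are needed in about equal numbers in each ribosome, and their genes are regarded as housekeeping genes with short, abundant mRNAs. Many of these mRNAs begin with a tract of C and T at the transcription start, the 5′ terminal oligopyrimidine tract, through which growth signals regulate their translation. Mammalian genomes also carry many processed pseudogenes of these genes, which are copies of the spliced mRNA inserted elsewhere in the genome. In the intestine, the crypt epithelium divides continuously and the villus epithelium makes digestive enzymes and transporters, both with a high demand for protein synthesis.

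The 2 libraries held 44994358 and 45351046 expected counts over Ensembl genes. All 10 intestine markers were present at 1 TPM or more in both (TPM, the deposited transcript abundance, is a level per transcript length, scaled to the same total in each library). A list of 16 exocrine pancreas genes had a summed level of 273708 and 1795 TPM, and the 10 stomach genes in the tables of 19753 and 51.5 TPM. Here and below, where a pair of values is given, the first is replicate 1 and the second is replicate 2. These RNAs differed between the same 2 libraries as every level that is compared between the replicates below, and their part in those differences was not tested. In bulk tissue, fewer cells of a type and less RNA per cell cannot be told apart.

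The 86 genes together held 3.38% and 4.59% of all TPM, or 3.98% ± 0.85 (SD, n = 2). After the exocrine pancreas and stomach lists and the spike-ins were removed and TPM rescaled, the shares were 4.87% and 4.67%. At 1 TPM or more in both replicates stood 82 of the 86 genes, including all 77 core genes, against 49.3% of all protein-coding genes. None was among the 20 genes with the highest mean TPM, 9 were among the top 100 and 39 among the top 500. Core genes had a median of 159 and 259 TPM, where protein-coding genes with a mean of at least 1 TPM had medians of 7.08 and 11.7 TPM.

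Levels of the core genes spread over 3 orders of magnitude. The highest core gene was Rps12, a small-subunit protein, at 3408 and 4468 TPM. The lowest was Rpl39, a small protein of the large subunit at the wall of the exit tunnel, at 1.43 and 2.96 TPM. Highest over lowest was therefore 2383-fold in replicate 1 and 1509-fold in replicate 2. Both folds rest on the low expected counts of Rpl39, 26.9 and 45.3. The standard deviation of log2(TPM + 1) over core genes was 2.35 and 2.25, against 1.97 and 2.09 over protein-coding genes with a mean of at least 1 TPM. That minimum and the added 1 narrow the low end of the second set, whose levels are lower, so the 2 spreads are not on like terms. The 10 highest core genes held 51.1% and 50.3% of all core TPM. The order of the core genes was shared by the replicates, with a Spearman rho of 0.98 over the 77 genes, whose points share annotation, transcript length and sequence copies.

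**Figure D1:**
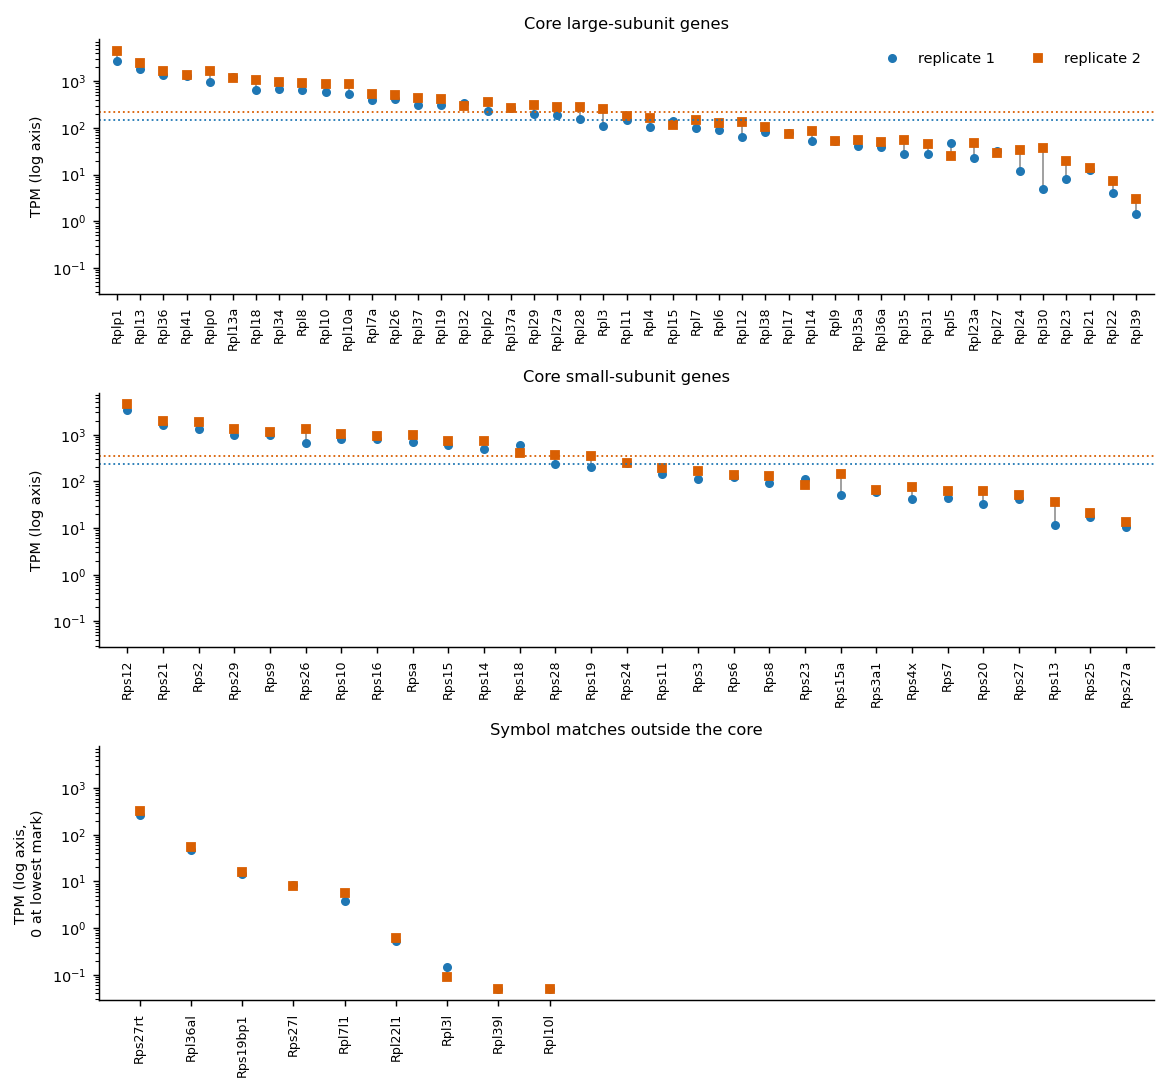
TPM (log axis) of the genes shown in replicate 1 (circles) and replicate 2 (squares), ordered by mean TPM within the core large subunit, the core small subunit and the 9 symbol matches outside the core. Dotted lines mark the median of each subunit in each replicate, and genes at 0 TPM are drawn at the lowest mark. Core genes run from Rps12 at 3408 and 4468 TPM to Rpl39 at 1.43 and 2.96 TPM, and most genes have both replicates close together.

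The stalk of the large subunit recruits the translation factors that hydrolyse GTP. Its acidic protein gene Rplp1 (chr9:61913284-61914542, mm10) was the second highest core gene, at 2727 and 4418 TPM. The gene of its partner in the stalk, Rplp2, stood at 230 and 363 TPM. Rplp1 was thus 11.8-fold and 12.2-fold above Rplp2 in TPM, although P1 and P2 proteins pair in the stalk. These folds depend on the deposited gene lengths, 495 nt in both libraries for Rplp1 and 954 and 944 nt for Rplp2. Expected counts, which are not per length, were closer, at 35964 and 48279 for Rplp1 and 8411 and 10384 for Rplp2. Rplp0, the anchor to which P1 and P2 bind, stood at 959 and 1652 TPM. Rpl12, at the base of the stalk, stood at 64.4 and 132 TPM. All 4 stalk genes had the higher TPM in replicate 2, as did 87.8% of all genes with a mean of at least 1 TPM. Near copies, described further on, bear on a pair of them. The log2 ratio of counts, replicate 2 over replicate 1, was 0.67 for Rpl12 alone and -0.18 with its copies, and 0.44 for Rplp0 alone and 0.15 with its copies.

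Rpl5 and Rpl11 bind 5S rRNA and, when not built into ribosomes, are known to bind the p53 regulator Mdm2. Rpl11 was measured at 147 and 184 TPM. Rpl5 was measured at 47.0 and 25.7 TPM, and so had the lower level in replicate 2. The level of Rpl11 was 3.12-fold and 7.16-fold that of Rpl5. Near copies held 61.9% and 80.2% of the counts of the Rpl5 family, and their part in that gap was not tested. The log2 ratio of counts, replicate 2 over replicate 1, was -1.05 for Rpl5 alone and -0.11 with its copies.

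The exit tunnel, through which the nascent chain leaves, had 9 listed genes at 1.43 to 411 TPM in the first library and 2.96 to 503 TPM in the second. Rpl26 was the highest, at 411 and 503 TPM, and Rpl19 followed at 316 and 410 TPM. Rpl4, whose loop lines the narrow part of the tunnel, stood at 106 and 167 TPM, and Rpl17, at the tunnel's end, at 78.4 and 72.5 TPM. Below them came Rpl31 at 27.7 and 45.3 TPM, Rpl35 at 27.3 and 55.0 TPM and Rpl23a, a docking site for the signal recognition particle, at 22.7 and 47.9 TPM. Rpl22, a protein with a paralog that can replace it, stood at 4.00 and 7.13 TPM. Rpl26 was 288-fold and 170-fold above Rpl39, with its low counts, at the lower end of the same list.

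Outside those groups, the large subunit was led by Rpl13 at 1829 and 2452 TPM, Rpl36 at 1344 and 1654 TPM and Rpl41 at 1297 and 1367 TPM. Rpl3, which lies closest to the peptidyl transferase centre, stood at 111 and 259 TPM, and Rpl10, which joins late and is needed for the subunits to pair, at 601 and 870 TPM. At the low end stood Rpl21 at 12.8 and 13.9 TPM, Rpl23 at 8.19 and 19.1 TPM, Rpl30 at 4.94 and 37.9 TPM and Rpl24 at 11.7 and 33.2 TPM. Of these 4 genes, Rpl21 had almost the same level in both replicates and the others were higher in replicate 2.

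In the small subunit, Rps12 led, and high levels were also measured for Rps21 at 1647 and 1977 TPM and Rps2 at 1302 and 1855 TPM. The 7 listed genes whose proteins line the path of the mRNA spanned 111 to 1302 TPM in the first library and 82.2 to 1855 TPM in the second. Rps2 and Rps3, which both shape the entry of that path, differed 11.7-fold and 11.2-fold in TPM, with Rps3 at 111 and 166 TPM. Their deposited gene lengths differ too, at 813 and 855 nt for Rps2 and 1897 and 1900 nt for Rps3. Expected counts were closer, at 38217 and 46540 for Rps2 and 9396 and 11010 for Rps3. Rpsa stood at 701 and 998 TPM, Rps15 at 594 and 727 TPM and Rps28 at 239 and 364 TPM. Rps26, near the exit of the path, stood at 650 and 1313 TPM. Rps23, in the decoding centre, was the one gene of the 7 with the higher level in replicate 1, at 115 TPM against 82.2 TPM.

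Small-subunit genes outside the list for the mRNA path ranged from the highest to the lowest levels of the subunit. Rps29 stood at 1008 and 1320 TPM, Rps9 at 1007 and 1138 TPM and Rps10 at 802 and 1064 TPM. In the middle, Rps6, the substrate of the S6 kinases, was at 122 and 137 TPM. The low end held Rps13 at 11.9 and 35.5 TPM and Rps25, known for its role at viral internal ribosome entry sites, at 17.5 and 20.9 TPM. The lowest was Rps27a at 10.3 and 13.3 TPM, whose product is ubiquitin fused to a ribosomal protein. Fau, which encodes a ribosomal protein fused to a ubiquitin-like protein and which the symbol rule does not take, was higher, at 406 and 870 TPM. Rack1, a scaffold on the small subunit and also outside the symbol rule, stood at 1191 and 1266 TPM.

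Most paralogs were low or listed at 0. Rpl10l and Rpl39l, paralogs known from the testis, were listed at 0 in both libraries. Rpl3l, known from striated muscle, stood at 0.15 and 0.09 TPM, with 6 and 3 expected counts. Rpl22l1, the paralog of Rpl22, was at 0.53 and 0.62 TPM, Rpl7l1 at 3.89 and 5.68 TPM and Rps27l at 8.21 and 7.85 TPM. Rpl36al reached 47.6 and 54.5 TPM, close to Rpl36a at 39.9 and 49.3 TPM. Rps27rt, an intronless gene, reached 270 and 323 TPM, above Rps27 at 41.9 and 52.2 TPM. Rps19bp1 was measured at 14.8 and 15.6 TPM. Of 3 further listed paralogs that the annotation holds as pseudogenes and the rule drops, Rps4l was at 103 and 183 TPM, Rps3a2 at 2.19 and 34.8 TPM and Rps3a3 at 0.04 and 0.09 TPM.

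By medians, the small subunit was above the large, at 239 against 145 TPM in replicate 1 and at 348 against 221 TPM in replicate 2. The log2 ratio of the large to the small median was -0.72 and -0.65. The order turned with the measure: summed TPM was 17051 for the large and 16407 for the small subunit in replicate 1, and 23805 and 21659 in replicate 2. It turned with the deposited gene length too, which is a mean weighted by transcript use in these libraries. Rps9, for example, counted as under 500 nt, with 77.4% and 65.7% of its TPM in a transcript of 378 nt. Among core genes of at least 500 nt, 41 of the large subunit had medians of 143 and 184 TPM, and 23 of the small subunit had medians of 122 and 166 TPM. The 13 shorter core genes, 5 of the large and 8 of the small subunit, held 40.9% and 40.3% of core TPM, with medians of 1244 and 1197 TPM for the large and 829 and 1225 TPM for the small. Over all 77 core genes, mean TPM and the deposited length in replicate 1 had a Spearman rho of -0.31. With the length of 1 annotated coding transcript per gene, the rho was -0.25. Effective length is the number of positions at which a fragment can start. Where it is very small and counts are low, a few counts move TPM far. For Rps27 it was 20.8 and 37.7 nt, and its 44.2 and 77.4 expected counts gave 41.9 and 52.2 TPM. This did not hold for Rps12, also under 500 nt, with an effective length of 240 and 258 nt and 41662 and 45479 counts.

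A stretch around the annotated start is shown for the 5 highest and the 5 lowest core genes among those with 1 entry in the RefSeq promoter table of build GRCm38.p6, because the oligopyrimidine tract is the sequence feature that these genes are known for. Each holds 10 bases before the start and the first 20 bases from it on the gene's strand, 5′ to 3′, with its longest run of C and T, or each of them where several tie, in capitals.
Rps12: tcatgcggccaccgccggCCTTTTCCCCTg
Rpl13: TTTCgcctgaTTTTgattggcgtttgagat
Rps2: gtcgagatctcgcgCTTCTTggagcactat
Rpl41: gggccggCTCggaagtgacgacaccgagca
Rplp0: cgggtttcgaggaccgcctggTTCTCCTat
Rps13: caaacgtcggtgagtggcgtcaCTTCCTgt
Rpl24: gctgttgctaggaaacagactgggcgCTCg
Rps25: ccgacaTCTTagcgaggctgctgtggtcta
Rpl23: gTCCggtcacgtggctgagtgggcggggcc
Rpl39: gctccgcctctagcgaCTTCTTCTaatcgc
The stretches lie at chr10:23787190-23787219 (-) for Rps12, chr8:123102340-123102369 (+) for Rpl13, chr17:24720053-24720082 (+) for Rps2, chr10:128549149-128549178 (-) for Rpl41, chr5:115559457-115559486 (+) for Rplp0, chr7:116334171-116334200 (-) for Rps13, chr16:55966265-55966294 (+) for Rpl24, chr9:44407704-44407733 (+) for Rps25, chr11:97782420-97782449 (-) for Rpl23 and chrX:37085203-37085232 (-) for Rpl39. The longest run was 11 bases in Rps12 and 8 bases in Rpl39, the highest and the lowest of the 10, and 3 bases in Rpl41, Rpl24 and Rpl23. Long and short runs thus stood at both ends of the levels. These runs need not be the oligopyrimidine tract, which begins at the start. Only a run of Rpl13 begins at the annotated start, and the longest runs of Rpl41, Rps25 and Rpl23 lie before it. A start in the table is an annotation and was not measured in these libraries. Some of these starts lie inside the gene's span in the gene annotation used here. Examples are Rps2 (chr17:24718116-24721929), Rps25 (chr9:44407139-44410427) and Rpl39 (chrX:37082520-37085402).

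The table held 67 entries for 57 of the 77 core genes. A run of at least 8 C or T bases on the gene's strand within 50 bases on either side of the start was present in 80.6% of the core entries and in 35.7% of all 32851 entries. CTTTCC, itself made of C and T, was found in the same window and on the same strand in 31.3% of core and 4.69% of all entries. CCGGAAG, a form of the site of ETS factors, was found on either strand in the 300 bases of 37.3% of core and 8.86% of all entries. AAGATGG, a form of the YY1 site that can overlap CCGGAAG, was found on either strand in 16.4% and 6.34%. TATAAA lay within 50 bases of the start, on the gene's strand, in 5.97% and 3.40%. These shares describe letters in annotated windows.

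Most core genes were higher in replicate 2 in TPM, and so were most other genes, whereas in expected counts scaled by TMM the members' median log2 ratio was -0.25 and that of all genes 0.02. The log2 ratio of TPM + 1, replicate 2 over replicate 1, had a median of 0.66 over the 12218 genes with a mean of at least 1 TPM and of 0.49 over the core genes. Relative to the median gene, the 82 such members lay at -0.20. The median was 0.52 for the large subunit and 0.41 for the small subunit, and 22 of the 77 core genes were above the median of all genes. With no filter on low values, the members' median came to lie 0.12 above that of all genes. The standard deviation of the ratio was 0.50 on the log2 scale over the core genes and 1.00 over all genes. It was lower in 4 other lists of the translation machinery, at 0.38 for mitochondrial ribosomal proteins, 0.39 for translation factors, 0.45 for ribosome assembly and 0.47 for other genes with an oligopyrimidine tract.

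Deposited credibility intervals of TPM, whose level is not stated, describe the division of reads within a library and not the spread between animals. They were apart with replicate 2 higher for 61 core genes, apart with replicate 1 higher for 5, and overlapped for 11. Among all 12218 genes with a mean of at least 1 TPM, 73.5% had intervals apart with replicate 2 higher and 6.38% with replicate 1 higher. Among all 5914 genes with a mean of at least 10 TPM the shares were 84.7% and 6.51%, and of the 75 core genes above that level 60 and 5 were apart in these directions. Relative to the median gene, 1 core gene lay more than 1 log2 unit higher in replicate 2, against 5.02% of all genes, and 3 more than 1 log2 unit lower, against 6.33%. Measured from the core median in place of that of all genes, 3 core genes lay more than 1 log2 unit higher and 2 lower, where all genes gave 7.42% and 5.02%.

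The largest ratio was that of Rpl30, at 2.71. Rps13, whose levels are given above, came next, with a log2 ratio of counts of 1.28 alone and of 0.58 with its copies. They were followed by Rps15a at 1.49, Rpl24 at 1.43 and Rpl3 at 1.21 on the same log2 scale. Rps15a stood at 50.4 and 144 TPM, but its expected counts were 2205 and 2580, a log2 ratio of 0.23. Its deposited effective length, a mean weighted by transcript use, was 861 and 456 nt. At the other end, Rpl5 had a ratio of -0.85, Rps18 of -0.57, Rps23 of -0.48, Rpl15 of -0.30 and Rpl32 of -0.23. Rps18, at the head of the small subunit, stood at 609 and 409 TPM. Rpl15 stood at 143 and 117 TPM and Rpl32 at 349 and 298 TPM. These 5 are the core genes whose intervals were apart with replicate 1 higher.

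**Figure D2:**
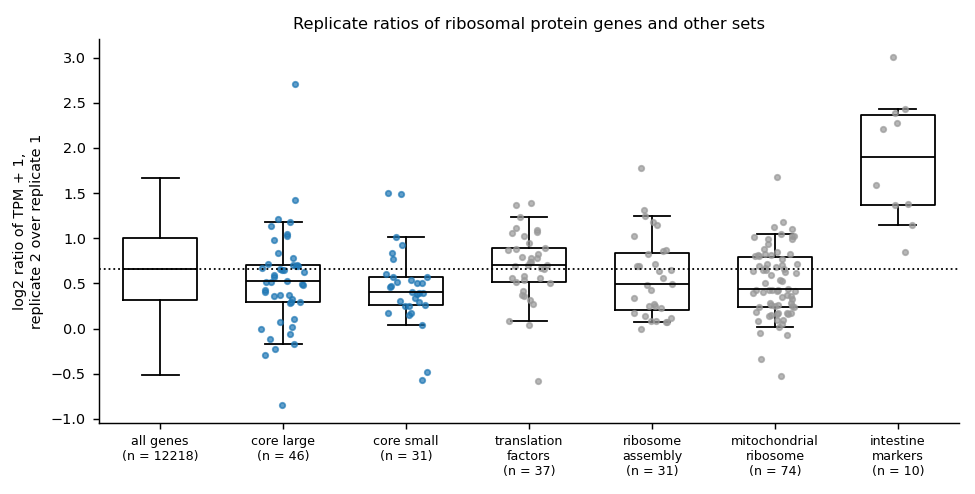
Log2 ratio of TPM + 1, replicate 2 over replicate 1, for all genes, the core genes of each subunit, and 4 other lists, each with genes of at least 1 TPM on average. Boxes give the quartiles and the median, whiskers the 5th and 95th percentiles, points single genes, and the dotted line the median of all genes, 0.66. The core medians of 0.52 and 0.41 lie under that line and Rpl30 stands apart at 2.71, while the intestine markers lie above it.

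Other lists of the translation machinery had medians on both sides of that of all genes. The 37 translation factors with a mean of at least 1 TPM had a median ratio of 0.70. Their highest genes were Eef1a1, which brings aminoacyl-tRNA to the ribosome, at 821 and 1335 TPM, Eef2, which drives translocation, at 564 and 1226 TPM, and Eif6, which keeps free large subunits apart from small ones, at 182 and 383 TPM. Eif5b stood below 1 TPM in both, at 0.47 and 0.86 TPM. The 31 ribosome assembly genes had a median ratio of 0.50, led by Nop53 at 29.8 and 68.7 TPM, Bop1 at 38.3 and 57.1 TPM and Nhp2 at 27.2 and 36.8 TPM. Utp15, at 0.50 and 0.97 TPM, and Wdr12, at 0.56 and 0.40 TPM, stood below 1 TPM in both. The 74 mitochondrial ribosomal protein genes had a median ratio of 0.43. Mrps24 led them at 188 and 310 TPM, with Mrps34 at 196 and 261 TPM and Mrpl52 at 144 and 227 TPM, while Mrpl50, at 0.37 and 0.80 TPM, and Mrpl47, at 0.35 and 0.49 TPM, stood below 1 TPM in both. The median level of the mitochondrial list was 13.3 and 20.9 TPM, below the 159 and 259 TPM of the cytosolic core.

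Among 21 other genes known or reported to carry the oligopyrimidine tract, the median ratio was 0.72. The highest were Tpt1 at 1251 and 1616 TPM, Rack1 and Eef1a1. This list shares genes with the translation factors and includes Fau and Rack1.

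A single read from the coding sequence of these genes often has more than 1 possible annotated origin. Counting as a near copy any other annotated gene or pseudogene that matches at least 50% of the coding sequence at 95% identity or more, 75 of the 77 core genes had at least 1, with a median of 5 and 584 in all. Of these copies, 570 are pseudogenes and 426 have a row in the deposited tables. Rpl8 had none. Rpl21 had 59, Rpl7a 37, Rpl29 29 and Rps2 27. A median of 82.2% of the stretches of read length in a core coding sequence were found unchanged in another annotated gene, 24 genes had every stretch shared, and Rps3 had none shared. Rpl41, whose coding sequence is shorter than a read, was left out of this share. A single read within such a stretch cannot be told apart by sequence. The share takes no account of the other read of a pair, which may lie in a stretch that differs or outside the coding sequence. How the authors' software divided the reads is not given in the sources used here beyond the fractional expected counts.

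The 16 core genes with at most 2 near copies had medians of 408 and 581 TPM, the 44 with 3 to 9 had medians of 182 and 264 TPM, and the 17 with 10 or more had medians of 115 and 117 TPM. The ranges overlapped, and the 17 include Rps2. Over the 77 core genes, mean TPM and number of near copies had a Spearman rho of -0.27. Near copies received 59009 expected counts in replicate 1 and 63118 in replicate 2, which is 7.60% and 7.09% of the counts of core genes and copies together. Over 10% of the counts lay in copies for 21 families in replicate 1 and 17 in replicate 2, and over 50% for 7 in each. The counts of a copy are those of its whole gene, also outside the matching stretch. Rpl21, at 50.9% and 70.1%, had 993 and 1808 counts in copies. Of these, 928 and 1611 were in BC004004, a protein-coding gene, and where in that gene they lie is not known.

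Rps27 and Rps27rt (chr9:114982366-114982739) have the same coding sequence, whose first 76 bases are given to show why the pair cannot be separated by reads within it.
Rps27: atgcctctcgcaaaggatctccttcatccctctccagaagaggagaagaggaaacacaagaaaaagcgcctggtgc
Rps27rt: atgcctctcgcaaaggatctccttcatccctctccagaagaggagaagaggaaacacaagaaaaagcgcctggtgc
Copies held 97.7% and 96.2% of the counts of the Rps27 family, with 1844 and 1938 counts in Rps27rt. The coding sequence of Rpl12 is likewise repeated without a change in Gm10275 (chr10:29698746-29699380), a transcribed processed pseudogene, which was listed at 407 and 363 TPM. Copies held 81.5% and 66.7% of the counts of the Rpl12 family. Rpl12 itself thus held the smaller part of its family's counts in both replicates. Rps13 stood in the same way, with 89.1% and 82.3% of its family's counts in copies, almost all in Rps13-ps1, and Rpl27 with 75.6% and 83.4%. A copy of Rpl27a, Gm7536, also stood high, at 375 and 269 TPM.

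**Figure D3:**
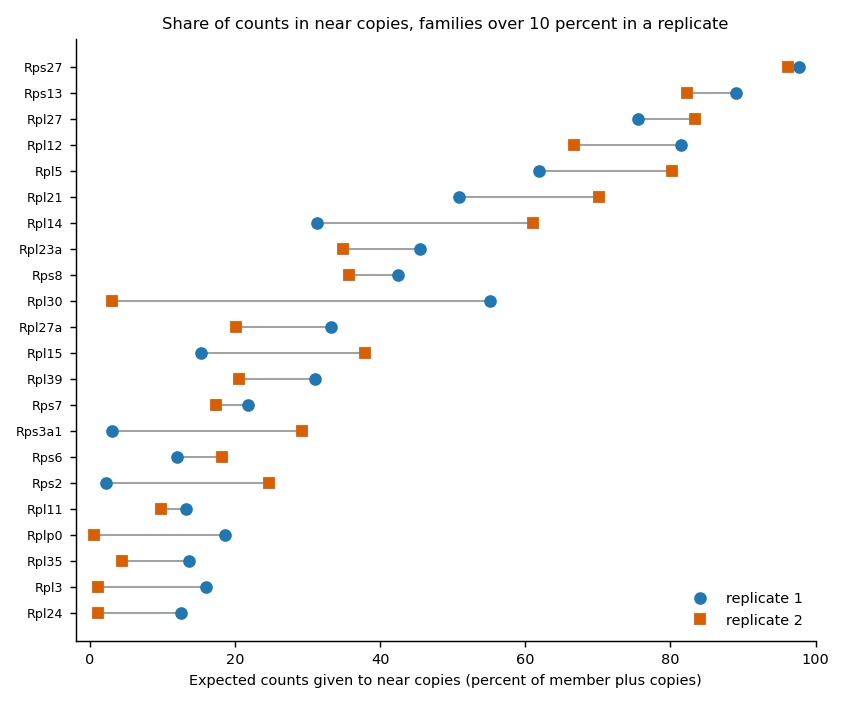
Percent of the expected counts of a core gene and its near copies that was given to the copies, in replicate 1 (circles) and replicate 2 (squares), for the families shown, over 10% in a replicate. Rps27 stands at 97.7% and 96.2%, and Rpl30 has the widest gap, from 55.1% to 3.03%.

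In 5 families the share in copies differed by over 20 percentage points between the replicates. Rpl30 had 149 counts in replicate 1 and 833 in replicate 2, while its copies had 182 and 26.0. With its copies added, Rpl30 had a log2 count ratio of 1.37 in place of 2.48, and it was still the highest of the core families.

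For Rps2 the larger share in copies was in replicate 2, and there both the gene and its copies had more counts. Its copy Gm6311 (chr13:75954136-75955013) was listed at 8.22 TPM with 179 counts in replicate 1 and at 772 TPM with 13542 counts in replicate 2, where Rps2 itself had 38217 and 46540 counts. The sequences differ at 9 aligned positions of the coding sequence and by 1 gap position, and bases 55 to 130 hold 4 of these, T60A, G79A, G80C and G125A. Positions are counted from the A of the start codon, the base of the gene comes first and that of the copy last, and differing bases are in capitals.
Rps2: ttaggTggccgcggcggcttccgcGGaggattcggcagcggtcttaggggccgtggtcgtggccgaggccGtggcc
Gm6311: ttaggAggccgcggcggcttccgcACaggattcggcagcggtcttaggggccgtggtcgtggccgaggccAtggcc
Copies held 2.26% of the counts of the Rps2 family in replicate 1 and 24.6% in replicate 2. For Rplp0 the larger share was in replicate 1, at 18.7% against 0.52%. Its copy Gm8730 (chr8:102864845-102865798) had 10043 counts in replicate 1 and 340 in replicate 2. The pair differs at 12 positions, of which bases 381 to 456 hold A390G, A393G and A447T.
Rplp0: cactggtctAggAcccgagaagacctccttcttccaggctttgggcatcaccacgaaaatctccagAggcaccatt
Gm8730: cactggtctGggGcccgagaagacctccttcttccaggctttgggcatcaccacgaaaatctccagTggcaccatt
Rpl14 and Rpl14-ps1 (chr7:45324965-45325617) differ at 4 positions and by 3 gap positions. Rpl14 had 1870 and 2455 counts, and Rpl14-ps1 had 851 and 3852. The family's ratio was 1.21 on the log2 scale, above the 0.39 of Rpl14 alone. The share in copies of Rps3a1 was 2.99% and 29.2%, and that of Rpl15 was 15.3% and 37.9%. Whether these differences lie in the tissue samples or in the division of reads was not tested.

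Adding the copies brought the core genes closer together. The standard deviation of the log2 count ratio over the 77 core genes was 0.51 for the genes alone and 0.38 with copies added. Core genes more than 2-fold from the core median numbered 4 by their own counts and 2 with copies, Rpl30 and Rpl14. For Rpl5, the log2 count ratio was -1.05 alone and -0.11 with its copies, which held 61.9% and 80.2% of the family's counts. For Rps18 the ratio relative to the core median was -0.96 alone and -0.95 with copies, and for Rps23 it was -0.99 and -0.97.

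**Figure D4:**
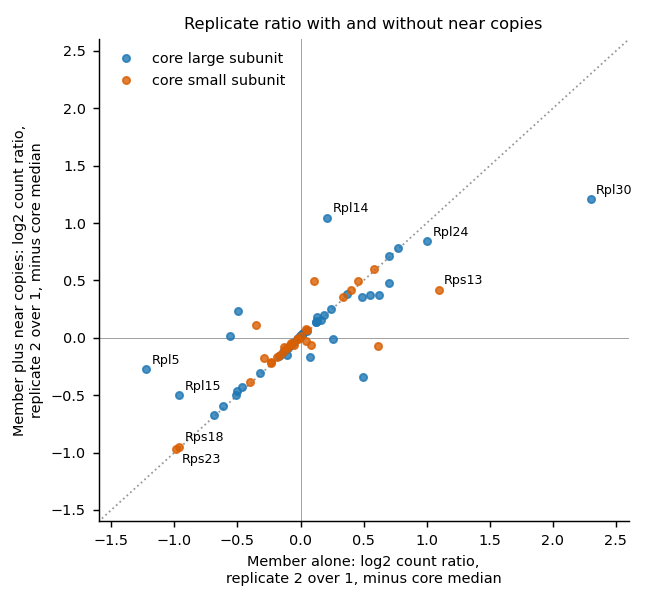
Log2 ratio of expected counts, replicate 2 over replicate 1, minus the core median, for the core genes shown, each alone (horizontal axis) and with its near copies added (vertical axis). Points on the dotted diagonal do not change. Rpl5 and Rpl30 move towards 0 when copies are added, and Rpl14 moves away from it.

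Transcripts within each gene were divided as well. For 57 core genes with more than 1 transcript, the main transcript held a median of 85.5% of the gene's TPM in replicate 1 and 90.7% in replicate 2, against 73.0% in each over 8400 protein-coding genes with a mean of at least 1 TPM. It held 90% or more in both replicates for 25 of the 57, or 43.9%, against 24.3%. The lowest mean shares of a main transcript were those of Rpl31, at 26.7% and 38.0%, Rpl15, at 41.5% and 35.3%, Rpl27, at 36.7% and 47.3%, Rpl22 and Rpl5.

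In 8 of the 57 genes, or 14.0%, the transcript with the largest share was not the same in both replicates, against 15.3% of the 8400 protein-coding genes. These were Rpl22, Rpl27, Rpl31, Rpl36a, Rpl5, Rps19, Rps2 and Rps28. In Rpl22, a transcript of 2048 nt held 0.72% in replicate 1 and 93.6% in replicate 2, and one of 2051 nt held 65.8% and 0.01%. In Rpl5, a transcript annotated as a retained intron held 5.96% and 93.4%, and a coding one held 92.7% and 0.00%. These are shares of the TPM given to Rpl5 itself. Its near copies, which held 61.9% and 80.2% of the family's counts, are not in them, and their part was not tested. In Rps28, a coding transcript of 437 nt held 18.6% and 81.4%, and a coding one of 382 nt held 60.9% and 14.1%. In Rpl36a, a coding transcript held 27.6% and 77.7%, and one annotated as a target of nonsense-mediated decay held 69.7% and 16.2%. In Rps19, a coding transcript of 774 nt held 73.9% and 40.1%, and a coding one of 417 nt held 10.5% and 52.6%. Rps2 was more even, with a retained intron at 51.0% and 39.3% and a coding transcript at 46.4% and 58.9%.

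Transcripts annotated as other than protein coding held over 20% of the gene's TPM in both replicates for 8 core genes, or 10.4%, against 21.3% of 11475 protein-coding genes. In 6 of the 77, or 7.79%, the main transcript was of such a type, against 12.2%. Rpl12 had 91.6% and 90.7% in such transcripts. Of its TPM, 58% and 51% lay in 1 annotated as a target of nonsense-mediated decay, and 27% and 34% in a retained intron. Near copies of Rpl12, which held 81.5% and 66.7% of its family's counts, are not in these shares. Rps6 had 87.1% and 84.7%, most of it in 1 processed transcript. Rps9 had 77.9% and 66.4%, Rps16 had 72.7% and 69.7%, and Rps2 had 51.3% and 39.8%. Transcript types come from a later release of the annotation than the one quantified, and for Rpl13a 96.1% of the TPM in replicate 1 lay in transcripts with no entry in it.

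**Figure D5:**
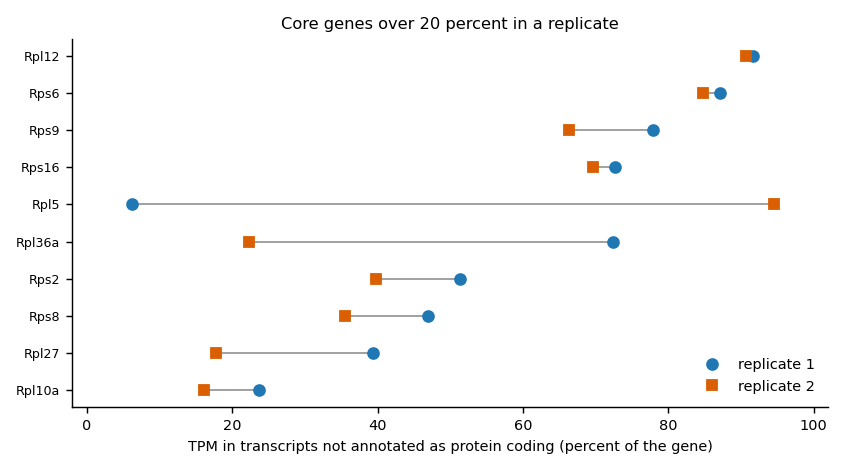
Percent of a core gene's TPM in transcripts annotated as other than protein coding, in replicate 1 (circles) and replicate 2 (squares), for the core genes shown, over 20% in a replicate. Rpl12 lies at 91.6% and 90.7%, and Rpl5 spans from 6.19% to 94.6%.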

How the data were processed

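Gene and transcript tables of 2 poly(A)-selected RNA-seq libraries were used as deposited, mapped to mm10 with annotation release M4 per the deposited table description; no aligner or quantifier is named in the labels or headers. The authors deposited expected counts, which are estimated and not whole, TPM, FPKM and posterior mean TPM with interval bounds for each gene, and the percent of a gene's TPM in each transcript. No test was run, because both libraries form 1 group of 2. How the samples of tissue were separated is known only as the labels' biological replicate numbers.

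Ensembl identifiers, without their version, were matched to GENCODE M21 (GRCm38): 42462 of 43346 matched. Reading "ps" in the symbol rule to the letter would drop every Rps gene, so it was read as the pseudogene ending. Members and lists were chosen with earlier results of these data known. Named genes are the 8 highest and 8 lowest core genes, paralogs, role lists, and extremes of replicate ratio and transcript share. Ratios used log2(TPM + 1), so those of low genes are understated. Near copies were found with blastn 2.17.0 of principal coding sequences against M21 transcripts. Expected counts were rounded and scaled by TMM in edgeR 4.0.16 and by size factors in DESeq2 1.42.0 as alternatives only. Python 3.11.15, pandas 2.3.3 and R 4.3.3 were used, and the ratio summary was checked on simulated data. A few genes and 1 sequence are not reported or drawn here; the genes stay in the counts, medians and sums.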

Additional observations from a re-analysis of the deposited data

How the results depend on the processing

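Over 47 alternatives, 32 left a result within a set limit. The limit was the SD of the 2 replicates, 0.1 log2 units for ratios between replicates, or 1.5 times a count. Leaving out a replicate always stays within that SD, so those alternatives could not move a result and are no sign of stability. The members' share of 3.98% of TPM became 1.70% of expected counts, a unit that is not per length, and ranged from 3.38% to 4.59% when a replicate was left out. A minimum of 100 TPM left 47 members in place of 82. The members' median log2 ratio relative to all genes, -0.20, was -0.30 with a pseudocount of 0.1, -0.32 with none and -0.35 for genes with a mean of at least 10 TPM. With no filter on low values it was 0.12, so its sign rests on that filter; the cause was not tested. Other scalings moved the median ratio of all genes, 0.66 in TPM, to 0.02 with TMM or DESeq2 size factors and to 0.26 when TPM was rescaled without the pancreas and stomach lists. The members stayed below it, at -0.27, -0.28 and -0.27.

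The log2 ratio of large to small medians, -0.69, was -0.24 in expected counts per length and -1.07 with all symbol matches, 0.10 for summed TPM and, in an alternative chosen after seeing the data, 0.19 for core genes of at least 500 nt. It ranged from -0.72 to -0.65 when a replicate was left out. The standard deviation of log2 TPM over core genes, 2.30, was 2.19 for those of at least 500 nt and ranged from 2.25 to 2.35 when a replicate was left out. In expected counts per effective length it was 2.30 for the genes alone and 2.18 with near copies added. Core genes more than 2-fold from the core median in TPM numbered 5, with 14 at 1.5-fold and 2 in counts with near copies. The alternatives on near copies were also chosen after seeing the data; 98% identity over 90% of the coding sequence left 64 core genes with a near copy in place of 75. No paired analysis was possible because the 2 libraries form 1 group.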

Other observations

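Some ribosomal protein loci fell outside the symbol rule. Rps12-ps3 and Gm10073 are annotated as protein coding and are near copies of Rps12 and Rplp1. Rps12-ps3 stood at 278 and 279 TPM, and Gm10073 at 60.4 and 59.9 TPM, so that both hardly differed between the replicates while Rps12 stood at 3408 and 4468 TPM and Rplp1 at 2727 and 4418 TPM. Gm10443, a processed pseudogene of Rps28, was listed at 0 TPM with 17.5 expected counts in replicate 1 and at 524 TPM with 75.3 expected counts in replicate 2. Its locus, chr6:86334031-86334240, is shorter than the mean fragment implied by the deposited lengths, 237 and 219 nt. Its 2 TPM values are thus not read here as a difference in level.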
